A study of Bos taurus with 96 samples.

Results

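The genes described here are known imprinted growth genes, grouped around DLK1 and MEST. They are DLK1, MEST, MEG3, IGF2, H19, PEG3, PEG10, PLAGL1, SGCE and NNAT. Of these 10 genes, 9 had at least 1 probe on the bovine array by accession or by the probe tables of the study, and no probe was matched to PEG3. The 9 genes are covered by 38 of the 43653 probes that are not controls, and 34 of the 38 are among the 34227 probes tested. Each gene is given by 1 lead probe, and differences between its probes are stated where they matter.

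The 96 arrays come from steers of 3 genetic backgrounds, Angus, Hereford and Wagyu x Angus. The labels give an age of 26 months and 259 days in a feedlot, but per the study's methods some LD samples came from steers of an earlier kill, which the labels do not mark. There were 5 fat depots with 12 arrays each, 4 of each breed, all from steers that had grazed pasture after weaning. They are subcutaneous fat from the rump (SC), fat from between the muscles (Inter), the fat around the kidney (Kid), omental fat (Omen), and intramuscular fat that was dissected out of the muscle (IMF). The longissimus dorsi muscle (LD) was taken whole, with the fat inside it, and had 36 arrays, 24 from steers on pasture and 12 from steers given a supplement after weaning. Samples of several depots came from the same steers and the labels do not say which, so p-values cover the spread between these samples.

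An imprinted gene is read from only one of its parental copies. Many such genes act on growth before and after birth, and several are switched down in most tissues as an animal matures. DLK1 holds back the formation of fat cells, while MEST rises when fat tissue expands. IGF2 is a secreted growth factor. Imprinted genes lie in clusters with shared control regions. In the RefSeq order of the bovine genome assembly ARS-UCD2.0, MEG3 is the next gene after DLK1, PEG10 is the next after SGCE, and H19 follows IGF2 with only a microRNA gene and uncharacterised genes between them. MEST, PLAGL1 and NNAT lie elsewhere.

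Levels are log2 signals relative to the 75th percentile of the array, so 0 is that percentile and each unit is a doubling. A level can be compared between samples but not between probes. The share of probes above background was between 66.2% and 81.1% in LD and between 72.4% and 96% in the fat depots, and no spot was saturated. The arrays were scanned on 3 days, with all IMF on day 3, all Inter on day 2 and 11 of 12 SC on day 1. Adipocyte genes were high in the fat depots and myofibre genes in LD, and IMF held both. The mean of 11 skeletal myofibre genes ran from 8.09 to 8.85 in LD and from 5.91 to 7.69 in IMF, against a median of -4.11 in SC. In the other depots the highest values were 5.54 for 1 Inter array and -0.19 for 1 Kid array. The mean of 7 adipocyte genes had a median of -0.76 in LD, 3.48 in IMF and between 4.68 and 4.85 in the other depots. In bulk samples, fewer cells of a type and less RNA per cell cannot be told apart.

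**Figure D1:**
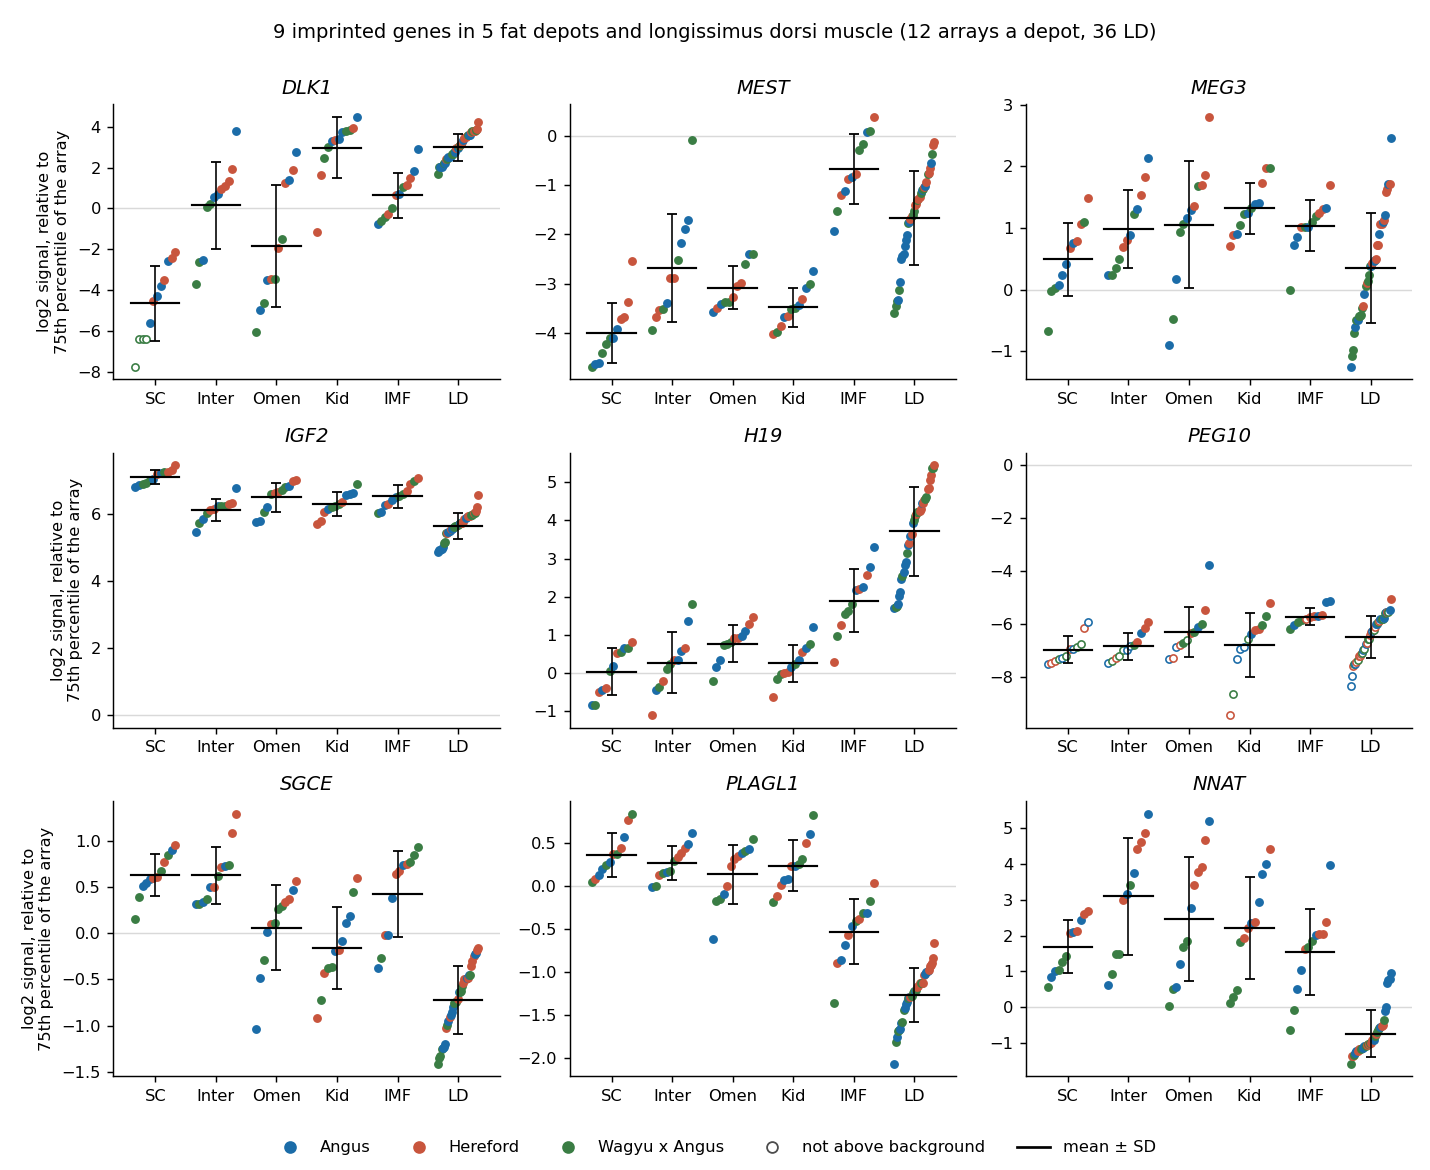
Level of the 9 imprinted genes on each array (y axis, log2 relative to the 75th percentile of the array) by tissue (x axis), with points coloured by breed, open points where the spot was not above background, and bars for mean ± SD. DLK1 lies lowest in SC with a median of -4.40, MEST is highest in IMF with a median of -0.80, IGF2 is highest in SC with a median of 7.12, and H19 is highest in LD with a median of 4.06.

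DLK1 was selected on its low level in SC against other depots and MEST on its high level in IMF against SC and LD. All DLK1 differences from SC, and all MEST differences from IMF or SC, are therefore given as values only. The other genes were chosen as known imprinted genes and tested with limma, with p adjusted over all 34227 probes. Against SC, 5 of 7 tested members changed in IMF, where 64.2% of all probes did, with 3 higher (31.2% of probes) and 2 lower (33%). In Inter 2 of 7 changed (48.8%), with 1 higher (21.6%) and 1 lower (27.2%). In Kid 3 of 7 changed (41.7%), with 1 higher (19.4%) and 2 lower (22.2%). In Omen 3 of 7 changed (45.7%), with 1 higher (20.5%) and 2 lower (25.2%), and in LD 5 of 7 (82.9%), with 1 higher (42.5%) and 4 lower (40.4%). Shares this near the background are not a result about these genes as a group, and what follows is the direction and size for each. Arrays of SC did not overlap those of IMF for 14.9% of probes, of Inter for 3.75%, of Kid for 3.52%, of Omen for 3.97% and of LD for 35.1%.

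DLK1, a membrane protein whose shed part inhibits adipogenesis, had its lowest levels in SC. In SC its lowest, median and highest levels were -7.73, -4.40 and -2.14, and only 8 of 12 arrays were above background. In Kid they were -1.15, 3.36 and 4.47, and in LD 1.66, 3.01 and 4.22. No array of Kid, LD or IMF was as low as the highest SC array. The mean was 7.61 higher in Kid than in SC, 7.62 higher in LD, 5.28 in IMF, 4.78 in Inter and 2.79 in Omen, the last 2 with ranges that overlap SC. These sizes are uncertain, since the SC mean includes 4 arrays not above background. On the arrays scanned on day 1 alone the difference was 7.58 for Kid and 7.84 for LD. IMF ran from -0.75 through a median of 0.70 to 2.90.

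The remaining depots could be tested for DLK1. Kid was 7.08-fold above Inter (log2 difference 2.82, SE 0.71, adjusted p = 0.0113) and 28.2-fold above Omen (4.82, SE 0.91, adjusted p = 0.00179). IMF was 5.02-fold below Kid (adjusted p = 4.5e-04), 5.06-fold below LD (-2.34, SE 0.26, adjusted p = 2.12e-11) and 5.61-fold above Omen (2.49, adjusted p = 0.0171). By mean level the order of these fat depots was Kid, IMF, Inter and Omen. Kid and IMF, next to each other in it, differed as given, while Inter minus Omen was 1.99 (SE 1.0, adjusted p = 0.188) and IMF minus Inter 0.50 (SE 0.65, adjusted p = 0.521), and neither passed. Scan day touches some of these values. IMF and Kid share a day through 1 Kid array, and with scan day as a block DLK1 IMF minus Kid was -3.07 (adjusted p = 0.179), against -2.67 (adjusted p = 0.00201) with the day estimated over all 96 arrays. Within day 3 IMF minus LD was -1.75 (adjusted p = 3.93e-04) and IMF minus Omen was 2.01 (adjusted p = 0.0574), and within day 2 Kid minus Inter was 2.65 (adjusted p = 0.0885) and Kid minus Omen 7.02 (adjusted p = 0.082, with 2 Omen arrays).

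Omen itself was divided for DLK1. Of its 12 arrays 8 lay between -6.03 and -1.51 and 4 between 1.23 and 2.76, with none in between. Each of Inter, Kid and Omen also had a larger SD than IMF, at 2.12, 1.49 and 2.98 against 1.11.

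The 5 DLK1 probes did not all follow this pattern. Probe A_73_110424, the brightest, was above background on all 12 SC arrays with a mean of 2.77, and was 0.34 lower in Inter than in SC and 0.44 lower in Omen, where the other 4 probes were higher. In Kid, IMF and LD all 5 probes were higher than in SC, by 0.89 to 7.61, 0.58 to 5.28 and 1.76 to 7.62. The same bright probe gave IMF minus Kid of 0.32 (adjusted p = 0.344), while the other 4 probes were lower in IMF, by 1.04 to 2.41. It also passed for IMF minus Inter (1.54, adjusted p = 4.51e-05), where the other 4 did not. For IMF minus Omen all 5 probes were higher, by 0.31 to 2.49, and 3 of 5 passed, with A_73_P102621 (adjusted p = 0.121) and A_73_P360536 (adjusted p = 0.256) not past the threshold.

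MEG3, the long non-coding RNA gene next to DLK1, moved far less. Its median level was 0.54 in SC, 1.28 in Kid, 1.05 in IMF and 0.39 in LD, and the ranges of all 6 tissues overlapped. MEG3 was 1.78-fold higher in Kid than in SC (0.83, SE 0.20, adjusted p = 0.00197) and 1.46-fold higher in IMF (0.55, SE 0.20, adjusted p = 0.0204). The difference was 0.49 in Inter (adjusted p = 0.0967) and 0.57 in Omen (adjusted p = 0.161), and without 1 SC array or 1 Omen array the adjusted p was 0.0472 and 0.0409, the Omen array being 1 of the 2 arrays with most outlier spots. LD minus SC was -0.13 (SE 0.27, adjusted p = 0.646). The 7.62 gap in DLK1 between LD and SC thus had no counterpart in the lead MEG3 probe, while the second MEG3 probe, dimmer and above background on 7 of 12 SC arrays, was higher than SC in all 5 tissues, by 0.74 in LD to 0.93 in IMF, each past the test. Within scan day 1, Kid minus SC for MEG3 was 0.75 (adjusted p = 0.0626).

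MEST, an enzyme of the alpha/beta hydrolase family that rises with fat tissue growth, had a different order. Its lowest, median and highest levels were -4.69, -4.11 and -2.54 in SC and -1.92, -0.80 and 0.39 in IMF. The IMF mean was 3.33 above SC, 2.81 above Kid, 2.41 above Omen, 2.01 above Inter and 0.99 above LD, and IMF did not overlap SC, Kid or Omen, as for 8.53% of probes against Kid and 8.44% against Omen. The gap to LD depended on which LD arrays were used, at 2.32 within scan day 3 and 0.34 against the supplement arrays. Smooth muscle and Schwann cell markers, averaged over each list, had the order IMF, LD, SC as well. The median of 5 smooth muscle genes was 6.35 in IMF, 4.96 in LD and 1.71 in SC, and that of 5 Schwann cell genes 1.60, -0.72 and -2.41. Not every gene of the lists had this order. ACTG2 was at 5.9 in IMF and 7.71 in LD, DES at 7.8 and 8.83, and S100B at 3.41 in IMF and 5.15 in SC. The part of these cell types in the MEST difference was not tested. As SC was among the samples the choice rests on, the other differences from SC are values too. MEST was 5.07-fold higher in LD than in SC (2.34, SE 0.29), 2.50-fold higher in Inter (1.32, SE 0.35), 1.89-fold higher in Omen (0.92, SE 0.22, over 11 Omen arrays since 1 spot was left out) and 1.43-fold higher in Kid (0.52, SE 0.20). Within scan day 1 Kid minus SC was 0.49, and within Hereford it was -0.39. With normexp background correction the sign of Kid minus SC turned, where the median of all probes was also below SC, at -0.25. Between Kid, Omen and Inter the lead probe passed in no pair (adjusted p from 0.089 to 0.455), while probe A_73_P329921 was 0.91 lower in Kid than in Inter (adjusted p = 0.0319). Of the 4 MEST probes tested, all 4 were higher in IMF than in SC, by 0.41 to 3.33, and 3 of 4 were higher in IMF than in LD, the other at -0.05. In Kid and Omen 3 of 4 were above SC, the other at -0.04 and -0.01. In Inter 2 probes were 1.32 and 1.40 above SC, and the 2 other probes were 0.22 and 0.19 below it.

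IGF2 was lower and its neighbour H19 higher, each past the test, in IMF, Omen and LD against SC. Against Inter both were higher in IMF, IGF2 by 0.40 (adjusted p = 0.0122) and H19 by 1.63 (adjusted p = 1.09e-04), a pair that shares no scan day. IGF2 was highest in SC, at 6.80, 7.12 and 7.46 for the lowest, median and highest array, against 5.46, 6.20 and 6.79 in Inter and 4.88, 5.69 and 6.57 in LD. Inter and LD did not overlap SC at all. The fall from SC was 1.49-fold in IMF (-0.57, SE 0.11, adjusted p = 1.15e-04), 1.52-fold in Omen, 1.75-fold in Kid, 1.97-fold in Inter (-0.98, SE 0.11, adjusted p = 3.37e-07) and 2.75-fold in LD (-1.46, SE 0.12, adjusted p = 6.77e-16). All 10 IGF2 probes were lower than in SC in each of these tissues. They passed the test in all 10 cases for Inter, Kid, Omen and LD and in 8 of 10 for IMF. In the authors' table, not scaled between arrays, the lead probe was above SC in IMF, Inter, Kid and Omen, as was the median of all probes. Within scan day 1 Kid was 0.70 lower (adjusted p = 0.00387) and LD 1.21 lower (adjusted p = 1.49e-12).

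H19, a non-coding RNA gene that is a marker of muscle differentiation, was low in the fat depots other than IMF. Its medians were 0.11 in SC, 0.19 in Kid, 0.28 in Inter and 0.86 in Omen, and neither Inter (adjusted p = 0.5) nor Kid (adjusted p = 0.438) passed against SC. In IMF the lowest, median and highest levels were 0.27, 1.99 and 3.29, and in LD 1.70, 4.06 and 5.45. All 36 LD arrays and 11 of 12 IMF arrays exceeded the highest SC array. LD was 12.8-fold above SC (3.68, SE 0.34, adjusted p = 5.92e-14), IMF was 3.64-fold above SC (1.86, SE 0.28, adjusted p = 4.05e-06) and Omen 1.67-fold (0.74, SE 0.22, adjusted p = 0.00727). IMF was 3.53-fold below LD (adjusted p = 9.98e-06), but within scan day 3 that difference was -0.45 (adjusted p = 0.213), the LD arrays of that day being lower in H19. All 3 H19 probes passed as higher in IMF and LD than in SC, and 2 of 3 in Omen.

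PLAGL1, a zinc finger factor that acts on other imprinted genes, was lower where myofibre RNA was high. Its medians were 0.33 in SC, 0.23 in Inter, 0.23 in Kid, 0.27 in Omen, -0.43 in IMF and -1.22 in LD. IMF was 1.86-fold below SC without overlap (-0.89, SE 0.13, adjusted p = 1.94e-06) and LD 3.09-fold below (-1.63, SE 0.10, adjusted p = 8.98e-21). From SC, Inter differed by -0.10 (adjusted p = 0.385), Kid by -0.13 (adjusted p = 0.387) and Omen by -0.23 (adjusted p = 0.132). Both PLAGL1 probes fell in IMF and LD.

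SGCE, a membrane protein of the sarcoglycan family, divided the fat depots other than IMF. The median was 0.60 in SC and 0.56 in Inter, against -0.19 in Kid, 0.18 in Omen and -0.68 in LD. Kid was 1.73-fold below SC (-0.79, SE 0.14, adjusted p = 9.85e-05), Omen 1.48-fold (-0.57, SE 0.14, adjusted p = 0.00238) and LD 2.54-fold (-1.35, SE 0.11, adjusted p = 1.01e-15), with all 3 probes lower in each. Within scan day 1 Kid minus SC was -0.79 (adjusted p = 0.00294). In the authors' table, not scaled between arrays, the sign turned in Kid and Omen, where the median of all probes was above SC too. With scan day as a block the Omen call was lost. Inter minus SC was 0.00 (SE 0.11, adjusted p = 0.992), though the 2 other probes were 0.31 and 0.34 higher in Inter (adjusted p = 0.0334 and 0.00756), and IMF minus SC -0.21 (SE 0.15, adjusted p = 0.22). SGCE was also lower in Kid than in Inter (-0.79, adjusted p = 0.00249), and higher in Inter than in Omen (0.57, adjusted p = 0.0183).

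PEG10, a gene derived from a retrotransposon and the neighbour of SGCE, was close to background. None of the 12 SC arrays was above background, against 10 of 11 in IMF, 7 of 12 in Omen, 6 of 12 in Kid, 5 of 12 in Inter and 9 of 36 in LD. IMF was at least 1.32-fold above SC (adjusted p = 1.19e-06), with mean -5.73 against -6.99, and no fold is given for the other tissues against SC. With normexp background correction the sign of IMF minus SC turned, to -0.37. The second probe also put IMF above SC (0.84, adjusted p = 0.014), but for IMF minus LD the 2 probes had opposite signs, at 0.78 and -1.12, and the second probe was 1.96 higher in LD than in SC (adjusted p = 2.25e-14).

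NNAT, a small membrane protein of the endoplasmic reticulum, varied widely between arrays of each fat depot. In Inter its lowest, median and highest levels were 0.62, 3.28 and 5.40, in SC 0.58, 1.75 and 2.69, and in LD -1.57, -1.0 and 0.96. Inter was 2.66-fold above SC (1.41, SE 0.49, adjusted p = 0.0202) and LD 5.34-fold below SC (-2.42, SE 0.22, adjusted p = 2.49e-14), with all 3 probes past the test in both. The differences from SC were -0.14 for IMF, 0.54 for Kid and 0.78 for Omen, and none passed.

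Depot and scan day overlap in this design. Inter shares no scan day with SC or with IMF, so on the arrays compared depot and day cannot be told apart in either comparison. A day estimated over all 96 arrays rests on tissues scanned on several days. With it 12848 probes passed for Inter minus SC and 18057 for IMF minus Inter. IMF shares a day with a single SC array, and with scan day as a block on those arrays no member was called between IMF and SC, where 6847 of 34227 probes still were. Nor was any called between Omen and SC, where 1515 probes were. Estimating the scan day over all 96 arrays, H19 IMF minus SC was 2.84 (adjusted p = 3.17e-09), IGF2 -0.45 (adjusted p = 0.0161), PLAGL1 -0.64 (adjusted p = 2.17e-04), MEG3 0.77 (adjusted p = 0.0486) and PEG10 0.97 (adjusted p = 0.05). The size for PEG10 is uncertain, since no SC array was above background for it.

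Between the other tissue pairs, all 8 tested members differed between IMF and LD, where 75.3% of probes did. IGF2, PLAGL1, SGCE, NNAT, MEG3 and PEG10 were higher in IMF (36.1% of probes), by 0.68 to 2.27, and DLK1 and H19 were lower (39.2%). For PEG10 this holds for the lead probe alone, since the second probe was 1.12 lower in IMF (adjusted p = 2.43e-06) and normexp turned the lead probe to -0.59. For MEG3 the second probe gave 0.18 (adjusted p = 0.336), and the lead probe did not pass against the supplement arrays of LD alone (0.40, adjusted p = 0.194). Within scan day 3 the 6 differences ran from 0.78 to 1.76, each past the test, with MEG3 at 1.74. IMF differed from Inter in 5 of 8 members (62.7% of probes), 3 higher (32.8%) and 2 lower (30%), with depot and scan day not to be told apart on the arrays compared. From Kid it differed in 5 of 8 (55.8%), 3 higher (28.4%) and 2 lower (27.4%), and from Omen in 3 of 8 (56.2%), 2 higher (27.8%) and 1 lower (28.4%). H19 was above and PLAGL1 below in IMF in all 3 pairs. Once scan day was a block, no member was called between IMF and Kid (1694 of 34227 probes were) or between Inter and Omen (485 probes). Kid minus Inter had 2 of 9 members past the test (15.4% of probes), with DLK1 higher (7.58%) and SGCE lower (7.84%). Kid minus Omen had 1 of 9 (12.1%), DLK1, which was higher (6.34%, with 5.78% lower), and Inter minus Omen had 1 of 9 (13.6%), SGCE, which was higher (5.87%, with 7.69% lower). Over the 5 depots together all 7 members that could be tested passed the F-test, where 87.2% of probes did.

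Within IMF the level of the myofibre genes can be set against the members array by array. Over the 12 IMF arrays IGF2 fell as the myofibre mean rose (r = -0.77, rho = -0.74, permutation p = 0.00449, adjusted 0.0154), and r without the 2 arrays farthest from the IGF2 median was -0.87. PLAGL1 (r = -0.77, rho = -0.85, permutation p = 0.00218, adjusted 0.0154) and SGCE (r = -0.76, rho = -0.82, permutation p = 0.00515, adjusted 0.0154) did likewise, with -0.77 and -0.73 without 2 arrays. DLK1 rose with it (r = 0.68, rho = 0.69, permutation p = 0.0149, adjusted 0.0335), though without 2 arrays r was 0.65 with an adjusted p of 0.105. H19 had r = 0.60 (rho = 0.72, permutation p = 0.0381, adjusted 0.0687), MEST -0.50 (rho = -0.45, permutation p = 0.0968, adjusted 0.145). These are 4 of 9 relations past the threshold. Of all 34227 probes 31.4% had an r with the myofibre mean at least as far from 0 as that of DLK1, and 21.4% as that of IGF2, so these relations are no more than many probes showed. The sign of each of the 4 was that of the LD minus IMF difference for the same gene. MEG3 had r = -0.24 (adjusted 0.543), and NNAT (r = 0.18, adjusted 0.581) had a sign opposite to that difference, as had the lead PEG10 probe (r = 0.43, adjusted 0.247, 11 arrays), though on the second PEG10 probe LD was above IMF. How much of each gene's signal in IMF came with the myofibre RNA was not tested.

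Whether the genes move together was asked for the neighbours DLK1 and MEG3, IGF2 and H19, PEG10 and SGCE, and for DLK1 with MEST, within each of the 6 tissues. Of these 24 relations 18 had r above 0 and 8 passed the threshold after adjustment over the 24. Of all tested probes between 37.9% and 63% had r above 0 with the first gene of a relation, depending on gene and tissue. Of the 6 with PEG10, which was near background, none passed and 3 had r above 0. In LD, IGF2 and H19 rose together over 36 arrays (r = 0.86, rho = 0.89, permutation p = 1e-05, the smallest that 100000 resamples can give, adjusted 1.2e-04). With the mean of each slide taken out r was 0.68, with the mean of each breed and diet group taken out 0.66, and without the 2 farthest arrays 0.86. In the unscaled value table of the authors it was 0.36 (adjusted p = 0.065). Of all tested probes 0.0467%, which include other IGF2 probes and the lead H19 probe itself, had an r with IGF2 in LD as far from 0 as 0.86. DLK1 and MEST also rose together in LD (r = 0.83, rho = 0.86, permutation p = 1e-05, adjusted 1.2e-04), with 0.76 after slide means, 0.75 after breed and diet means and 0.80 without 2 arrays. For this pair the share of probes, MEST and other DLK1 probes among them, was 0.0146%. DLK1 and MEG3 had r = 0.56 in LD (rho = 0.57, permutation p = 4.6e-04, adjusted 0.00368), with 0.57 after slide means, 0.43 after breed and diet means (adjusted p = 0.0459) and 0.53 without 2 arrays, and 4.19% of probes had an r with DLK1 as far from 0 as 0.56. These genes of LD therefore varied together within slides as well as between them.

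In the fat depots the pairs did not behave alike. For relations past the threshold there, the share of probes with an r as far from 0 with the first gene was 0.906% and 3.15% for IGF2 and H19 in Omen and Kid, and 1.73% for DLK1 and MEG3 in Inter. For DLK1 and MEST in IMF it was 19.2%. IGF2 and H19 rose together in Omen (r = 0.83, rho = 0.79, permutation p = 9.2e-04, adjusted 0.00552, and 0.80 without 2 arrays) and in Kid (r = 0.69, rho = 0.63, permutation p = 0.0128, adjusted 0.044, and 0.71 without 2 arrays, adjusted 0.0688). In IMF r was -0.39 (rho = -0.38, permutation p = 0.207, adjusted 0.293) and -0.84 without the 2 arrays farthest from the IGF2 median (adjusted 0.013), so there it passed with a negative sign. DLK1 and MEG3 rose together in Inter (r = 0.75, rho = 0.69, permutation p = 0.00518, adjusted 0.0207), and without 2 arrays r was 0.69 (adjusted 0.0688). DLK1 and MEST went opposite ways in IMF (r = -0.68, rho = -0.53, permutation p = 0.0162, adjusted 0.0487), which rests on 2 arrays, r being -0.42 without them. With breed means taken out, IGF2 and H19 had r = 0.93 in Omen (permutation, adjusted 1.6e-04) and 0.61 in Kid (adjusted 0.077). DLK1 and MEG3 then had 0.67 in Inter (adjusted 0.0532), and DLK1 and MEST -0.65 in IMF (adjusted 0.0609). In Omen DLK1 and MEST also passed with a negative sign, but the arrays fall into the 2 separate DLK1 ranges given above, so no pooled r is given and the relation cannot be tested within the range of 4. No relation between PEG10 and SGCE passed, and PEG10 was above background on 0 of 12 SC arrays and 9 of 36 LD arrays. Whether these relations differ between tissues was not tested.

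**Figure D2:**
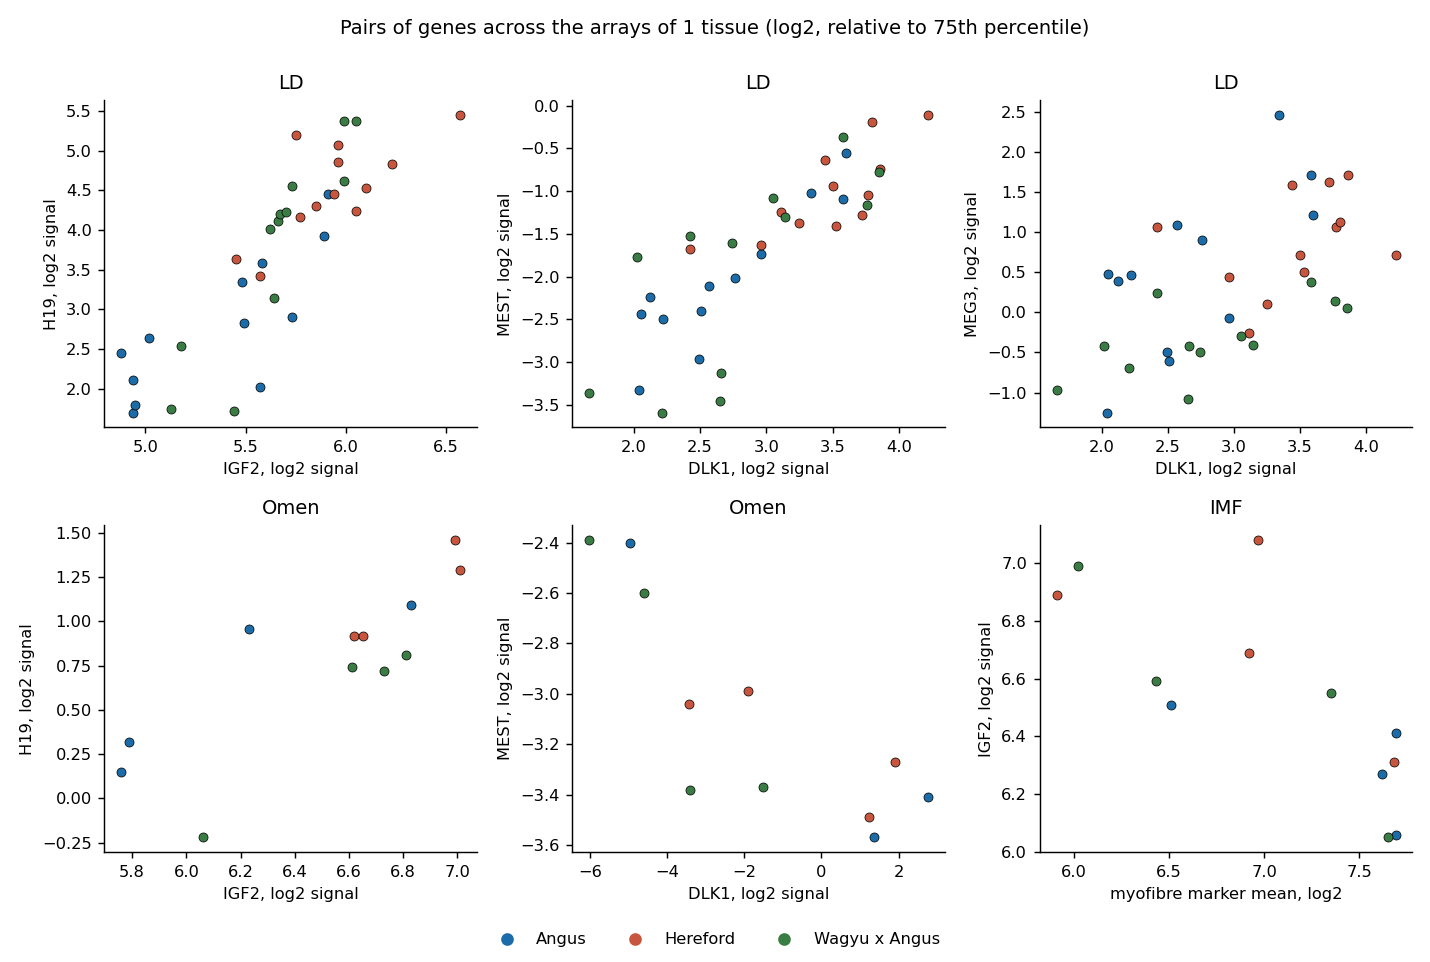
Each point is 1 array, with the levels of 2 genes (log2 relative to the 75th percentile of the array) on the axes, in LD and Omen, and in the last panel IGF2 against the mean of the myofibre genes in IMF. In LD IGF2 and H19 rise together with r = 0.86 and DLK1 and MEST with r = 0.83, in IMF IGF2 falls with the myofibre mean with r = -0.77, and in Omen the DLK1 values leave a gap between -1.51 and 1.23.

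Over the 60 fat arrays with the mean of each depot and breed taken out, the 36 pairs of members had a median r of 0.21, from -0.20 to 0.71, and 27 were above 0. The median r of the members with all other named genes was 0.02. These are descriptions over arrays that share slides and animals. The highest pair was PLAGL1 with SGCE, at 0.71. Both fell with the myofibre mean within IMF, as given above, and that was not taken out here. The genes most like DLK1 were CHCHD7, ADAM23, BUD31 and METAP1D, each at 0.61, and DYSF at 0.60. Those most like MEST were LYPD1 (0.74), CDH7 (0.72), FMOD (0.71), STEAP2 (0.69) and SULF2 (0.69), of which FMOD is a collagen-binding matrix proteoglycan. The closest single gene was MMP2 for MEG3 (0.67), ENG for IGF2 (0.78), EEF1G for H19 (0.69), CHST14 for PLAGL1 (0.79), LHFP for SGCE (0.85) and ZNF713 for PEG10 (0.86). PEG10 was near background on most of these arrays.

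Breed was tested over the 60 fat arrays with depot in the fit. Arrays of different depots came partly from the same steers, which this fit does not take into account, so its p-values may be too small. NNAT passed, and it was the only member that did, 1 of 9 where 3.2% of all probes passed (F = 18.29, adjusted p = 3.15e-04). The lowest, median and highest NNAT levels were 0.52, 2.39 and 5.40 in Angus and 1.63, 2.64 and 4.85 in Hereford. Wagyu x Angus had -0.63, 1.16 and 3.41. Wagyu x Angus had the lowest mean in all 5 depots. In Kid its 4 arrays were at 0.12, 0.30, 0.47 and 1.83, against 2.35 to 4.0 in Angus and 1.94 to 4.43 in Hereford. In Omen they were at 0.05, 0.50, 1.68 and 1.86, against 3.42, 3.78, 3.91 and 4.68 in Hereford and 0.58 to 5.19 in Angus.

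NNAT was 3.99-fold lower in Wagyu x Angus than in Hereford (-2.0, SE 0.34, adjusted p = 1.3e-04) and 2.67-fold lower than in Angus (-1.42, SE 0.34, adjusted p = 0.023). The 2 other NNAT probes gave -2.12 and -2.14 against Hereford, and -1.38 (adjusted p = 0.0466) and -1.35 (adjusted p = 0.0619) against Angus. Between Wagyu x Angus and Hereford 2 of 9 members passed where 3.54% of probes did, NNAT and MEG3, both lower in Wagyu x Angus (2% of probes lower, 1.54% higher). Between Wagyu x Angus and Angus 1 of 9 passed, NNAT, where 0.76% of probes did (0.412% lower, 0.348% higher). Hereford minus Angus had 0 of 9 with limma (0.567% of probes, 0.324% higher and 0.242% lower), and 3 at an unadjusted p under 0.05, as did 3294 of 34227 probes. No depot alone gave a call for NNAT with 4 arrays a breed (adjusted p from 0.544 to 0.961). A dependence of breed differences on depot was not detected, with 0 of 9 members and 0 of 34227 probes past limma's interaction test (0% of probes), while at an unadjusted p under 0.05 there were 1 member, IGF2, and 2526 probes. MEG3 was 0.62 lower in Wagyu x Angus than in Hereford (SE 0.19, adjusted p = 0.0495), a call lost with slide as a random block (adjusted p = 0.0549), and its second probe gave -0.42 (adjusted p = 0.136).

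**Figure D3:**
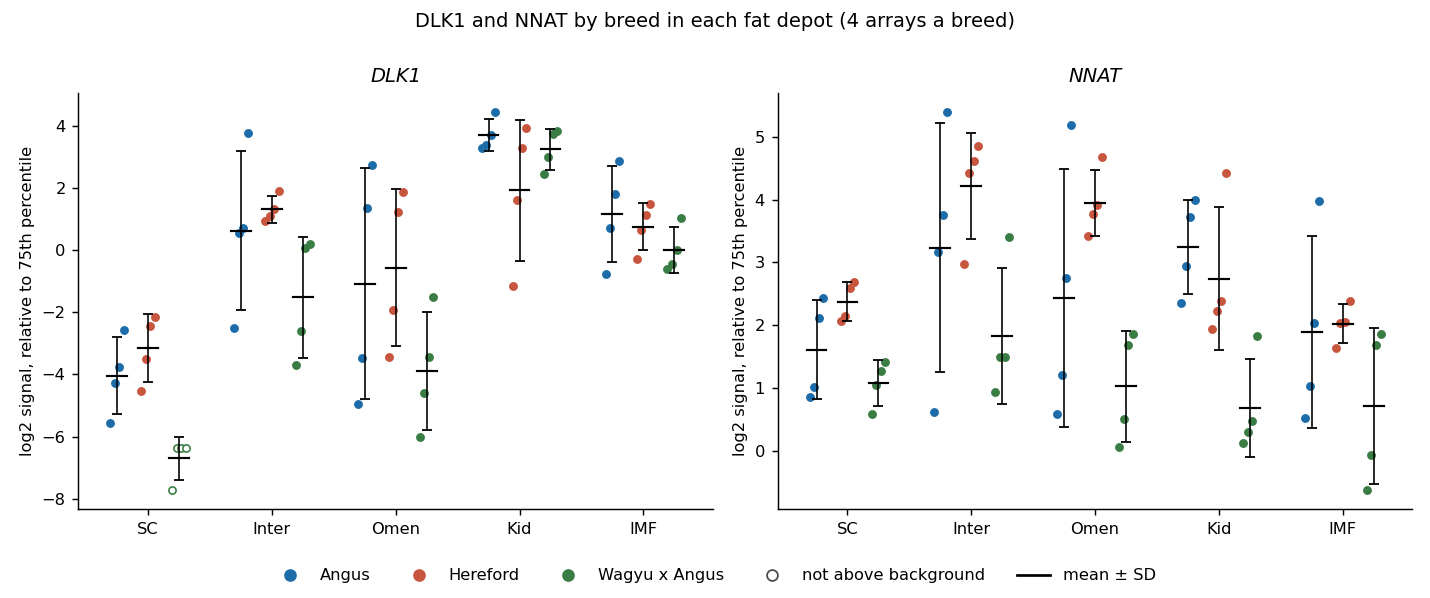
Level of DLK1 and NNAT (y axis, log2 relative to the 75th percentile of the array) in the 5 fat depots by breed, with 4 arrays each, open points where the spot was not above background and bars for the mean. None of the 4 Wagyu x Angus arrays of SC is above background for the lead DLK1 probe, and for NNAT the Wagyu x Angus mean is the lowest of the 3 breeds in each depot.

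DLK1 was close to the threshold for breed (F = 7.10, adjusted p = 0.053). In SC the 4 Wagyu x Angus arrays were at -7.73, -6.36, -6.36 and -6.36, none above background, while Angus had -5.57, -4.27, -3.77 and -2.57 and Hereford -4.53, -3.50, -2.43 and -2.14. The Wagyu x Angus arrays lay below all others on the lead probe. This separation was picked out after seeing the data, and the share of all probes that separate breeds so was not counted. Angus was at least 3.88-fold and Hereford at least 7.21-fold higher, with the Wagyu x Angus mean set at the background limit. These bounds hold for the lead probe alone. Probe A_73_P360536, above background on all 12 SC arrays, had means of -2.38 in Wagyu x Angus, -2.22 in Hereford and -2.31 in Angus, and probe A_73_P102621 had -5.47, -4.68 and -4.89. Probe A_73_P399776 was above background on 3 of the 12. Within SC the breed test gave F = 15.94 with an adjusted p of 0.553. Over all fat depots Wagyu x Angus was 1.83 below Hereford (SE 0.56, adjusted p = 0.0533) and 1.85 below Angus (SE 0.56, adjusted p = 0.112). In Kid the order was another, with Wagyu x Angus at 2.46 to 3.84, Hereford at -1.15 to 3.94 and Angus at 3.30 to 4.47. The interaction of breed and depot did not pass for DLK1 (F = 1.48, adjusted p = 0.847). In Omen Wagyu x Angus ran from -6.03 to -1.51, and all 4 arrays above 1 were Angus or Hereford. The breed test passed without the 2 arrays that had most outlier spots (adjusted p = 0.0325) and with scan day as a block over all 96 arrays (adjusted p = 0.0025). The bright probe A_73_110424 had another order in SC, with means of 2.93 in Wagyu x Angus, 2.76 in Hereford and 2.62 in Angus.

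In LD breed touched 8 of 9 members, all but PEG10, where 25.3% of probes passed. H19 ran from 1.70 through a median of 2.73 to 4.45 in Angus, from 3.42 through 4.49 to 5.45 in Hereford, and from 1.72 through 4.16 to 5.38 in the Wagyu cross (F = 17.94, adjusted p = 0.00106). IGF2 had medians of 5.48, 5.95 and 5.66 in the same order (F = 14.11, adjusted p = 0.00245). MEST had -2.18, -1.14 and -1.57 (F = 7.45, adjusted p = 0.0178) and DLK1 2.54, 3.52 and 2.70 (F = 7.52, adjusted p = 0.0173). Hereford thus had the highest median of H19, IGF2, MEST and DLK1. On the pasture arrays of scan day 1, however, Hereford and Wagyu x Angus were close in H19 and MEST. The means there were 4.2 and 4.24 for H19, and -1.25 and -1.27 for MEST. On supplement, scanned the same day, they were 4.97 and 4.88 for H19, and -0.74 and -1.13 for MEST. NNAT ran the other way, with Angus at a median of -0.32 against -1.03 and -1.01 (F = 10.11, adjusted p = 0.00729). Pairs of breeds were not tested in LD, and 1 of 3 H19 probes (adjusted p = 0.165), 1 of 2 MEG3 probes (adjusted p = 0.618), 1 of 10 IGF2 probes (adjusted p = 0.473) and 1 of 4 MEST probes (adjusted p = 0.494) did not pass.

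Diet was compared in LD alone, with breed in the fit, and 5 of 9 members passed where 11.2% of probes did, 4 higher on supplement (5.65%) and 1 lower (5.6%). H19 was at 3.35, 4.54 and 5.45 (lowest, median, highest) on supplement and at 1.70, 3.28 and 5.20 on pasture, a 2.42-fold difference (1.28, SE 0.25, adjusted p = 0.00123). MEST was 1.96-fold higher on supplement (0.97, SE 0.25, adjusted p = 0.00999), IGF2 1.34-fold (0.42, SE 0.09, adjusted p = 0.0031) and PLAGL1 1.2-fold (0.26, SE 0.08, adjusted p = 0.0334). NNAT was 1.61-fold lower on supplement (-0.69, SE 0.16, adjusted p = 0.00509). All 3 H19 probes, all 3 NNAT probes and 8 of 10 IGF2 probes passed in the same direction, while 2 of 4 MEST probes and 1 of 2 PLAGL1 probes did. DLK1 differed by 0.48 (SE 0.19, adjusted p = 0.0894) and SGCE by 0.31 (SE 0.11, adjusted p = 0.0527), where 2 of 5 DLK1 probes and 2 of 3 SGCE probes passed as higher.

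Breed, diet and slide are bound together in LD. Each supplement group of 4 arrays was on 1 slide of its own, and with slide as a random block none of the 5 diet calls remained (adjusted p from 0.34 for H19 to 0.604 for PLAGL1), nor any of the 8 for breed. The 5 diet differences were as large as before, and their SE was larger, at 0.38 for H19 against 0.25. The spread between slides of one group was large. Wagyu x Angus on pasture averaged 2.29 in H19 on slide 20 against 4.12 and 4.28 on slides 13 and 14, and -3.38 in MEST against -0.78 and -1.43. NNAT averaged 0.14 and 0.28 on the 2 slides of Angus on pasture and from -1.23 to -0.71 on every other LD slide. Within a breed and a scan day 4 supplement arrays can be set against 4 pasture arrays. H19 was higher on supplement by 1.60 in Angus, by 0.64 in Wagyu x Angus and by 0.77 in Hereford. In the same order IGF2 was higher by 0.77, 0.13 and 0.36, MEST by 1.16, 0.14 and 0.51, and NNAT was lower by 1.31, 0.21 and 0.22, given as values without a test. PLAGL1 differed by 0.24, -0.06 and 0.22, so its sign was not the same in every breed. Diet and slide cannot be told apart in these groups, nor could kill be set against diet.

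**Figure D4:**
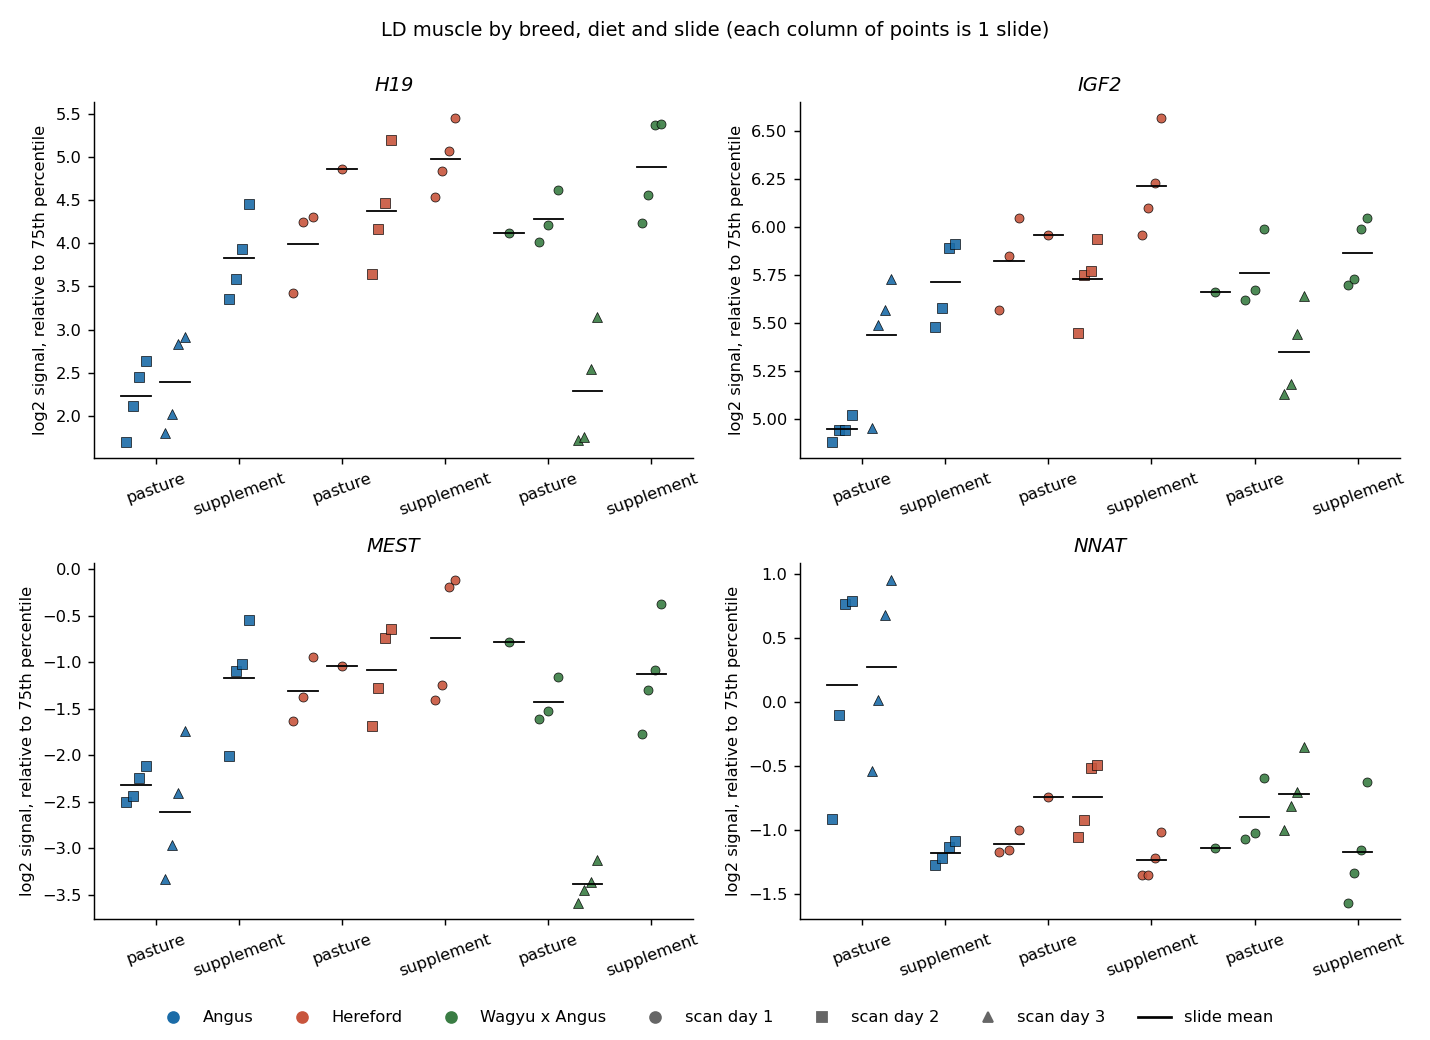
Level of H19, IGF2, MEST and NNAT in LD (y axis, log2 relative to the 75th percentile of the array) by breed, diet and slide, where each point is 1 array, its marker gives the scan day and the bar is the mean of the slide. H19 averages 2.22 and 2.39 on the pasture slides of Angus and 3.83 on the supplement slide, and slide 20 of Wagyu x Angus on pasture lies apart from slides 13 and 14 for H19 and MEST.

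IGF2 acts through receptors and is held by binding proteins, and 11 of 13 genes of this kind had a probe. In Kid 6 of 11 were below SC and none above, where 22.2% of all probes were below, with a median of -0.39 against -0.01. In IMF 8 passed (64.2% of probes), 6 of them lower (33%), and in LD all 11 (82.9%), of which 8 were lower (40.4%, median -1.19 against 0.05). The binding protein IGFBP3 fell from SC by 1.87 in Kid, 1.79 in Inter, 1.42 in Omen, 0.94 in IMF and 4.09 in LD. IGFBP5 fell by 2.33, 1.39, 1.62, 1.86 and 1.49 in the same order. IGF2BP2, which binds the IGF2 messenger RNA, went the other way, and was 2.99 higher in IMF than in SC (adjusted p = 1.44e-11), 3.80 higher in LD and 2.0 higher in Omen, sizes that are uncertain since 7 of 12 SC arrays were above background. Of the binding proteins IGFBP3, IGFBP4, IGFBP5 and IGFBP6 had their highest mean in SC, as IGF2 did, while IGFBP1 was higher in IMF (-3.94) than in SC (-5.02, 8 of 12 arrays above background).

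DLK1 is shed from the membrane by ADAM17 and has been linked to NOTCH signalling and to SOX9, and 10 of 13 genes of that list had a probe. Against SC 8 of 10 passed in IMF (64.2% of probes), 3 higher and 5 lower, 7 in Inter (48.8%), 5 in Kid (41.7%), 5 in Omen (45.7%) and all 10 in LD (82.9%). SOX9, a factor that holds back early fat cell formation, was above background on only 2 of 12 SC arrays, so its distance from SC is uncertain. It was above background on all 12 arrays of IMF, Inter and Kid, on 11 of 12 in Omen and on 35 of 36 in LD. Its mean level was -3.06 in IMF, -4.45 in Inter, -5.31 in Kid, -2.96 in Omen and -3.94 in LD. Kid was 2.36 below Omen (adjusted p = 1.51e-06) and 0.87 below Inter (adjusted p = 0.0122). ADAM17 was lower than in SC in every tissue, by 0.23 in Inter to 2.64 in LD. The receptor NOTCH2 was 0.82 lower in IMF (adjusted p = 3.27e-05) and 2.43 lower in LD.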

How the data were processed

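For each array the authors deposited scanner intensity values, among them a background-subtracted processed signal per spot (Feature Extraction 10.7.3.1, per the labels), and a series table of log2 values per probe, median signal minus local background, not scaled between arrays. Here the log2 processed signal, without outlier spots (0.223% of values) and averaged per probe, was set relative to the 75th percentile of each array. Probes were named by RefSeq accession and the probe tables of the study (62.7% of the 34227 in the series table). Groups were compared with limma 3.58.1 (lmFit, eBayes; R 4.3.3) on the arrays compared, Benjamini-Hochberg over all probes, threshold 0.05. Correlations used two-sided permutation tests with 100000 resamples. Depth on an array is signal over background, and the number of arrays limits the precision. The methods were tested on simulated data. Members and lists were chosen with earlier results of these data known. The labels do not say which LD samples came from an earlier kill, so the 36 LD arrays were 1 group. The lead probe is the one the study lists, or else the brightest; genes named by likeness are the 5 highest r for DLK1 and MEST and the highest for the others, of which the one for NNAT is not reported here. Alternatives were quantile normalization, centring on the array mean, normexp with an offset of 50 (on the median spot signal), the series table, all non-control probes, a background filter, the methods' t-test, and breed, slide, scan day or replicate number in the fit.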

Additional observations from a re-analysis of the deposited data

Results flagged for a closer look

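Of 187 groups of arrays of one member examined, 9 had 1 array standing apart from the others, where chance gives about 1 in 20, or 9.3. In SC of Wagyu x Angus DLK1 was -7.73 on 1 array and -6.36 on the other 3, none above background. In Omen of Wagyu x Angus H19 was -0.22 on 1 array, the next being 0.72. In Kid IGF2 was 6.16 on 1 Angus array, with the next at 6.58, and 6.91 on 1 Wagyu x Angus array, with the next at 6.31. In IMF of Wagyu x Angus the array in position 3 of slide 8 stood apart in MEG3, at 0.00 against 1.01 for the next, and in SGCE, at -0.27 against 0.77; this array is 1 of the 2 with most outlier spots. SGCE was also low on 1 Hereford IMF array, at -0.02 against 0.64. In LD on supplement MEG3 was 0.38 on 1 Wagyu x Angus array against -0.29 for the next, and PLAGL1 was -1.34 on 1 Angus array against -1.02.

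Among probes of the members outside the 34227 tested, the IGF2 probe A_73_P509823 was above background on 96 of 96 arrays, the MEST probe A_73_P102636 on 26, the PLAGL1 probe A_73_P103146 on 25 and the PEG10 probe A_73_P468253 on 4. The MEST probe was above background on 12 of 12 IMF arrays and on 0 of 12 SC arrays.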

How the results depend on the processing

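Of the recomputed member values 3301 kept direction and side of the threshold, 148 lost a call, 57 gained one, 23 with no test moved and 18 changed sign. The number of members called moved by over 1.5 times in 39 recomputed counts and not in 335. A scan day block fitted to just the arrays compared made it 0 for IMF minus SC, IMF minus Kid, Omen minus SC and Inter minus Omen, 1 for Kid minus Inter, 3 for diet and 2 for breed in LD and in fat. Of all 34227 probes that fit called 6847, 1694, 1515 and 485 for the first 4 and 2780 for Kid minus Inter. With that block over 96 arrays it became 5 for IMF minus Omen, 3 for Kid minus Omen and for breed in fat, and 2 for diet, breed in LD and Wagyu x Angus minus Angus. Slide as a random block gave 1 for Kid minus Inter and for Inter minus SC, and 0 for diet and for breed in LD. One fit over 96 arrays gave 5 for IMF minus Omen and 3 for Inter minus Omen. Wagyu x Angus minus Hereford fell to 1 under quantile normalization, mean centring, all non-control probes, another probe, slide as a random block and the replicate block. Inter minus SC gave 4 with normexp and with another probe. Breed gave 0 within each of SC, IMF, Inter, Kid and Omen alone. Without the 2 arrays with most outlier spots, a choice made after seeing the data like the removal of LD slide means, Inter minus Omen and breed in fat gave 2 each.

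The authors' series table, not scaled between arrays, gave 3 for IMF minus SC, 6 for Inter minus SC, 5 for Omen minus SC and 3 for diet. It turned IGF2 minus SC for IMF, Inter, Kid and Omen to 0.08, 0.06, 0.14 and 0.23. It turned PLAGL1 to 0.87, 0.75 and 0.59 and SGCE to 0.97, 0.08 and 0.27 in Inter, Kid and Omen, and PLAGL1 with diet to -0.07. In that table the median of all probes was itself above SC, by 0.98 in Inter, 0.83 in Kid, 0.82 in Omen and 0.63 in IMF, so relative to it IGF2 stayed lower. So did PLAGL1 in Inter, Kid and Omen, and SGCE in Kid and Omen. Normexp turned MEST Kid minus SC to -0.11, and PEG10 to -0.37, -0.84, -0.72 and -0.58 for IMF, Inter, Kid and Omen minus SC and to -0.59 for IMF minus LD. With normexp the median difference of all probes from SC was -0.25 in Kid, -0.23 in IMF, -0.28 in Inter and -0.26 in Omen. Relative to it MEST in Kid stayed above SC, while PEG10 was below SC. Within Hereford MEST Kid minus SC was -0.39. The PLAGL1 diet call was lost with the methods' t-test after adjustment (adjusted p = 0.11). The cause of these changes was not tested.

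Leaving out 1 array at a time gave 5 to 5 members for IMF minus SC, 2 to 3 for Inter minus SC, 3 to 3 for Kid minus SC and 3 to 4 for Omen minus SC. Of 24 relations, 5 in place of 8 passed with breed means (in LD breed by diet means) removed and 5 without the 2 farthest arrays. Replicate numbers are array positions, repeat within 14 of 21 groups and do not pair samples (median r 0.01 for the same number, -0.01 for another), and beside the replicate block value of 1 above no count of members moved by over 1.5 times under that block. Signal near background limits PEG10 in all tissues and DLK1 in SC.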

Other observations

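Other known imprinted genes were measured beside the members, 20 of a list of 26 having a probe. Against SC, 14 of 20 passed in IMF (8 higher, 6 lower, 64.2% of all probes passing), 10 in Inter (3 higher, 7 lower, 48.8%), 9 in Kid (4 higher, 5 lower, 41.7%), 10 in Omen (4 higher, 6 lower, 45.7%) and 18 in LD (9 each way, 82.9%). The list had no common direction and its counts were near these shares. PHLDA2, a growth-restraining gene known from placenta, was 4.46 higher in Inter than in SC (SE 0.47, adjusted p = 1.02e-07) and about 2 units higher in each of Kid (2.27), IMF (2.09) and Omen (2.0), while LD minus SC was -0.22 (adjusted p = 0.471). GRB10, an adaptor that restrains insulin and IGF signalling, followed the muscle samples, with means of 4.38 in LD, 2.86 in IMF and 0.83 to 1.05 in the other depots. RTL1, a retrotransposon-derived gene near DLK1, was above background on 36 of 36 LD arrays, 7 of 12 IMF arrays and 0 of 12 SC arrays. In Kid, where the mean DLK1 level was 2.98 against 2.99 in LD, 6 of 12 arrays were above background for RTL1. TFPI2, an inhibitor of serine proteases, was 1.76 higher in Omen than in SC (adjusted p = 9.51e-05). PON3, a lactonase, was lower than in SC in all 5 tissues, by 0.70 in Inter to 1.99 in LD.

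In fat 1 of the 20 passed the breed test (3.2% of probes), and in LD 11 of 20 did for breed (25.3%) and 5 of 20 for diet (11.2%), under the same binding to slides as for the members.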
